A study of Mus musculus with 4 samples.

Results

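Plasminogen activators, their cell surface receptor and 3 serpins that share this pathway or its name were followed in mouse embryonic fibroblasts (MEFs) with and without p53. The 6 genes were Plau, Plat, Plaur, Serpine2, Serpinb2 and Serpinf1, taken as the probes that carry one of these symbols, out of 31824 gene names on the array. The study looked for p53 targets that act on myosin, using MEFs treated with doxorubicin, a drug that poisons topoisomerase II and breaks DNA. RNA came from 4 conditions with 1 array each, all on 1 slide: wild-type (WT, p53+/+) MEFs without agent, WT MEFs with doxorubicin, p53-/- MEFs without agent and p53-/- MEFs with doxorubicin. The p53-/- cells lack the tumor suppressor in both the untreated and the treated culture. The labels give no dose and no treatment time for the arrays, and the number of embryos behind each culture is not given in the sources used here. With 1 array per condition no difference has a replicate check, no test was possible, and the place on the slide cannot be told apart from the condition.

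Plasminogen is a circulating zymogen that urokinase (uPA, from Plau) and tissue-type activator (tPA, from Plat) cut into plasmin, a protease that digests fibrin and pericellular matrix. The receptor uPAR, from Plaur, holds uPA at the cell surface, and serpins stop the activators by a one-way trap in which the protease becomes bound to its cleaved inhibitor. Fibroblasts make and secrete most of these proteins, and several belong to the set that senescent or damaged fibroblasts release.

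Among the inhibitors, Serpine2 encodes protease nexin-1, a secreted serpin that traps thrombin, uPA and tPA, and Serpinb2 encodes PAI-2, a mostly intracellular serpin that can inhibit uPA. Serpinf1 encodes PEDF, which has the serpin fold but is known as a non-inhibitory member, so the heading of activators and inhibitors does not describe it. The RefSeq promoter table (GRCm38.p6) held windows for 4 of the 6 genes. It held none for Plau and Plat. The 250 bases before the start are printed for Serpine2 (chr1:79858666-79858915, minus strand), which had the widest range of levels among the genes measured on all 4 arrays, for Serpinb2 (chr1:107511173-107511422, plus strand, the first of 2 windows), which was well above background only with doxorubicin, and for Plaur (chr7:24462233-24462482, plus strand). Capitals mark matches on either strand to any of 5 motifs, which are the GC box GGGCGG, the TATA box TATAAA, the AP-1 motif TGACTCA, the CRE-like motif TGACATCA and the CCAAT box CCAAT, with overlapping matches run together.
Serpine2: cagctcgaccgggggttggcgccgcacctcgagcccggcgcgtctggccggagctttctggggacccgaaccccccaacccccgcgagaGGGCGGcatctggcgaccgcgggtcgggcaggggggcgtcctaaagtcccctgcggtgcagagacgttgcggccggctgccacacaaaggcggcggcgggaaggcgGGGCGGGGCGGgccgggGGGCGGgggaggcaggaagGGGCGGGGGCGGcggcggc
Serpinb2: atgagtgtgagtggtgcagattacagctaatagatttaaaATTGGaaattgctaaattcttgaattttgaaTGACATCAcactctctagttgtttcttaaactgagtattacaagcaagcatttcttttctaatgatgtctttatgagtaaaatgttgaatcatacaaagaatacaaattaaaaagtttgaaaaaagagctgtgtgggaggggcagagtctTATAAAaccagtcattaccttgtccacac
Plaur: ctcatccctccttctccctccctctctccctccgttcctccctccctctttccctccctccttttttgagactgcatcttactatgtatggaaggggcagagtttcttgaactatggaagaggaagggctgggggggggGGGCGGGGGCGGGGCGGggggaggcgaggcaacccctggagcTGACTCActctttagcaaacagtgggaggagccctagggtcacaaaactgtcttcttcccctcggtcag

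The 3 windows differed in base composition and in the motifs they hold. G and C made up 78.8% of the Serpine2 window, more than in 98.3% of the 32851 windows of the table, and it held 6 GC boxes and none of the other motifs. The Serpinb2 window was at the other end, with 32.4% G and C and only 2.6% of windows below it. It held a TATA box, a CRE-like motif and a CCAAT box on the opposite strand, the TATA box 29 to 24 bases before the start. The Plaur window, at 59.6% G and C, held 3 GC boxes and 1 AP-1 motif that lay 69 to 63 bases before the start. The Serpinf1 window, not printed, held 3 CCAAT boxes. Of all windows of the table, 32.7% hold the GC box, 12.4% the TATA box, 4.46% the AP-1 motif, 2.93% the CRE-like motif and 33.8% the CCAAT box. These matches describe letters in a window and were not tied to any factor.

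Levels below are background-subtracted signals of 1 probe as a percentage of the 75th percentile of the same array, and ratios are log2 ratios of these levels. Levels of the 6 genes were not compared with each other, since each has its own probe. A ratio was taken where the probe was marked well above background on both arrays, and a gene was called higher or lower from 2-fold, a log2 ratio of 1. The error that the scanner software attaches to a signal was close to 10% for every gene here but Serpinb2 and gives an error of about 0.20 for a log2 ratio. Repeat spots of a probe on 1 array gave a smaller SD of 0.09 for a log2 ratio, over 182 probes. Both cover the array only, not the cultures. The 75th percentiles were signals of 1819 to 2421, 56.9% to 62.9% of the probes were well above background, and 0 spots were saturated. The labels were checked first on the targeted gene. The Trp53 probe read signals of 1228 in untreated WT, 3442 in treated WT, 442 in untreated p53-/- and 543 in treated p53-/- MEFs. It was lower in both p53-/- arrays, though well above background on each, and whether the knockout allele still holds the sequence it binds was not looked at. All 12 fibroblast markers were well above background on every array.

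**Figure D1:**
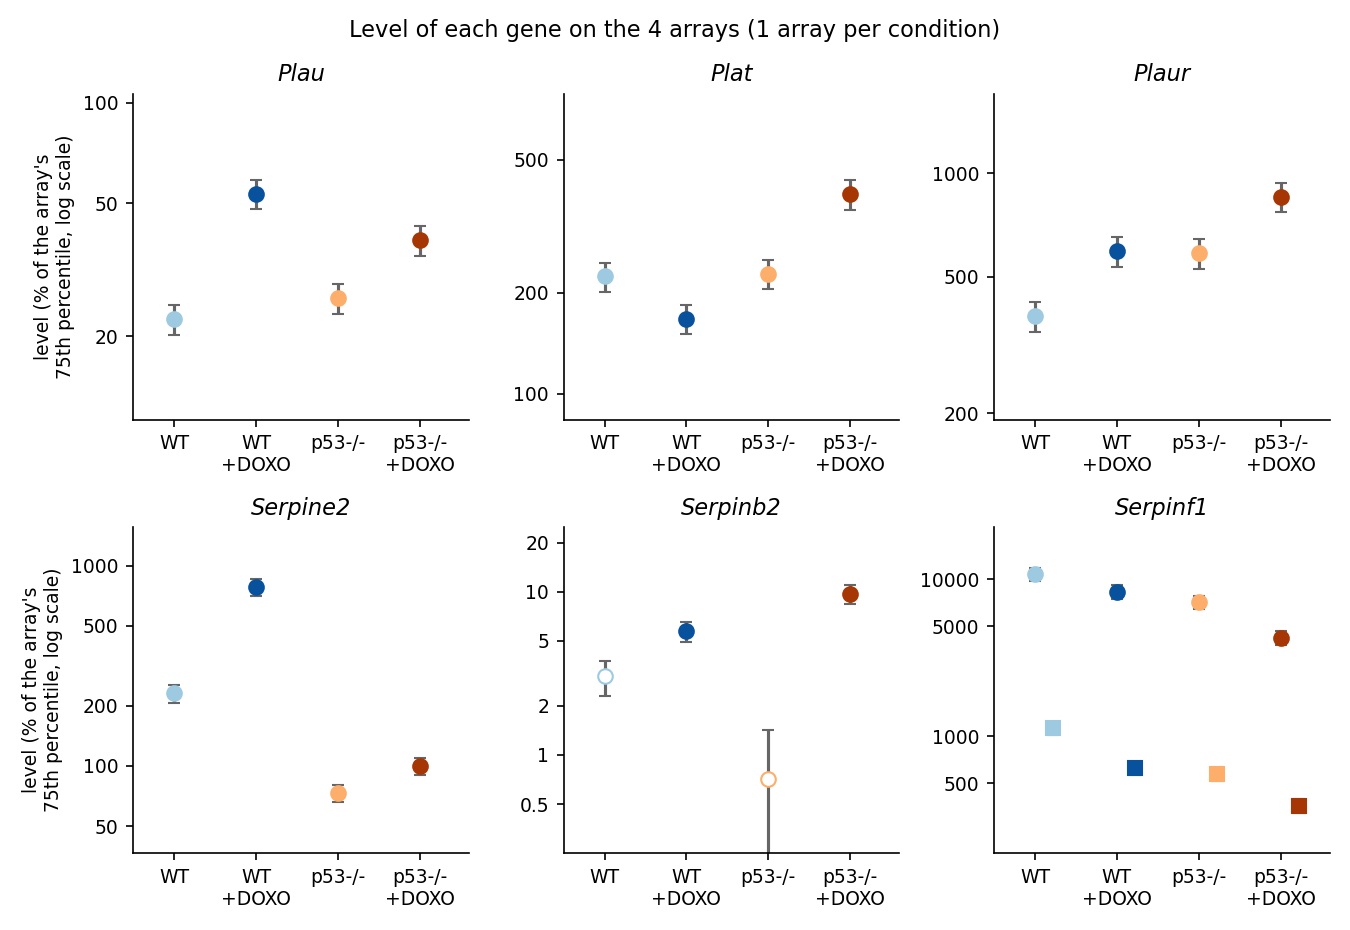
Level of each gene on the 4 arrays, as a percentage of the 75th percentile of its array, on log scales that differ between genes. Points are single arrays, bars the error given by the scanner software, open points probes not well above background, and squares the second Serpinf1 probe. Serpine2 spans 73.2% to 781% and is highest in doxorubicin-treated WT MEFs, whereas Plat and Plaur are highest in doxorubicin-treated p53-/- MEFs.

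Doxorubicin came with higher Plau and Serpine2 in WT MEFs, and no measured gene of the 6 passed 2-fold with the drug in p53-/- MEFs. In WT MEFs, 2 of the 5 measured genes were at least 2-fold higher, beside 11.0% of 17546 genes, and 0 were lower, beside 10.4%. In p53-/- MEFs the counts were 0 higher, beside 9.24% of 16978 genes, and 0 lower, beside 6.89%. For a set of 5 genes these counts are too small to be set against the background. Their median log2 ratio was 0.63 in WT and 0.54 in p53-/- MEFs, where the median over all genes was 0.01 and 0.00. Since these are bulk RNA samples, fewer cells of a type and less RNA per cell cannot be told apart.

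Plau encodes uPA, the activator most tied to cell migration and matrix turnover. Its probe (chr14:21662242-21662301, mm9) read 22.5% in untreated WT, 53.3% in treated WT, 26.0% in untreated p53-/- and 38.8% in treated p53-/- MEFs. Both untreated cultures were low and both treated cultures were high, with WT the highest. Plau rose 2.37-fold with doxorubicin in WT MEFs (log2 ratio 1.25, scanner error 0.21) and its log2 ratio in p53-/- MEFs was 0.58. The WT call was lost when arrays were scaled to their median, where the log2 ratio was 0.97 and the median of all genes was at -0.27. The log2 ratio was 0.67 larger in WT than in p53-/- MEFs, with a scanner error of 0.30 on this difference. Before scaling between arrays the 2 ratios lay closer together, at 1.06 in WT and 0.94 in p53-/- MEFs.

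Plat encodes tPA, the activator best known for clearing fibrin from vessels. Its probe (chr8:23892531-23892590, mm9) read 224% in untreated WT, 167% in treated WT, 228% in untreated p53-/- and 395% in treated p53-/- MEFs. The untreated cultures read nearly the same, and with the drug the WT level was the lowest of the 4 and the p53-/- level the highest. The log2 ratio with doxorubicin was -0.42 in WT and 0.79 in p53-/- MEFs, each short of 2-fold. The 2 ratios have opposite signs, and their difference, WT minus p53-/-, was -1.22 with a scanner error of 0.29. Before scaling between arrays the log2 ratio in p53-/- MEFs was 1.16, since the treated p53-/- array was the brightest.

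Plaur, whose product uPAR is a lipid-anchored receptor that concentrates uPA at the surface, was higher with the drug and higher without p53, and no single step reached 2-fold. Its probe (chr7:25260569-25260628, mm9) read 383% in untreated WT, 593% in treated WT, 586% in untreated p53-/- and 854% in treated p53-/- MEFs. The treated WT and untreated p53-/- arrays differed by 0.02 on the log2 scale, below the limit of 0.19 set at 2 SD between repeat spots. The log2 ratio with doxorubicin was 0.63 in WT and 0.54 in p53-/- MEFs, and the difference of 0.09 was smaller than its scanner error of 0.29. From the lowest to the highest of the 4 arrays the log2 level differed by 1.16.

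Serpine2, the protease nexin-1 gene, had the widest range of the 5 genes measured on all arrays, 3.42 on the log2 scale. Its probe (chr1:79793476-79796093, mm9, minus strand, a span longer than the probe) read 230% in untreated WT, 781% in treated WT, 73.2% in untreated p53-/- and 99.7% in treated p53-/- MEFs. Both WT arrays were above both p53-/- arrays. Serpine2 rose 3.39-fold with doxorubicin in WT MEFs (log2 ratio 1.76, scanner error 0.20), and 732 of the 17546 genes measured had a higher ratio. In p53-/- MEFs its log2 ratio was 0.45. The difference between the 2 ratios was 1.32 with a scanner error of 0.29, and 775 of 16538 genes had a larger one. Before scaling between arrays the ratios lay closer together, at 1.57 in WT and 0.81 in p53-/- MEFs.

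Serpinb2 encodes PAI-2, a gene known for strong induction in stressed and inflamed cells. Its probe (chr1:109422046-109422105, mm9) read signals of 63.3 in untreated WT, 104 in treated WT, 13.5 in untreated p53-/- and 234 in treated p53-/- MEFs, and only the treated cultures were marked well above background. It was at least 1.88-fold higher with doxorubicin in WT MEFs and at least 3.14-fold higher in p53-/- MEFs. These bounds set the treated level against the higher of the untreated signal and the lowest signal marked well above background on the untreated array. The brightest of 153 negative control spots read 108 on the untreated WT array and 250.1 on the untreated p53-/- array. Against that spot the treated level was 1.10 times as high in WT and 0.73 times as high in p53-/- MEFs, so neither bound stands against the brightest negative control.

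Serpinf1 encodes PEDF, a secreted protein known for blocking vessel growth and binding collagen. It had 2 probes, and the brighter one (chr11:75223582-75223641, mm9) read 10747% in untreated WT, 8322% in treated WT, 7145% in untreated p53-/- and 4229% in treated p53-/- MEFs. The dimmer one (chr11:75229163-75229222, mm9) read 1120%, 625%, 572% and 358% in the same order. Both probes gave the same order of the 4 arrays, with untreated WT the highest and treated p53-/- the lowest. The log2 ratio with doxorubicin by the brighter probe was -0.37 in WT and -0.76 in p53-/- MEFs. By the dimmer probe it was -0.84 and -0.68, so the probes disagreed on which genotype had the larger ratio. Under scaling to the array median, where the median of all genes was at -0.30, the p53-/- ratio of the brighter probe was -1.05.

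**Figure D2:**
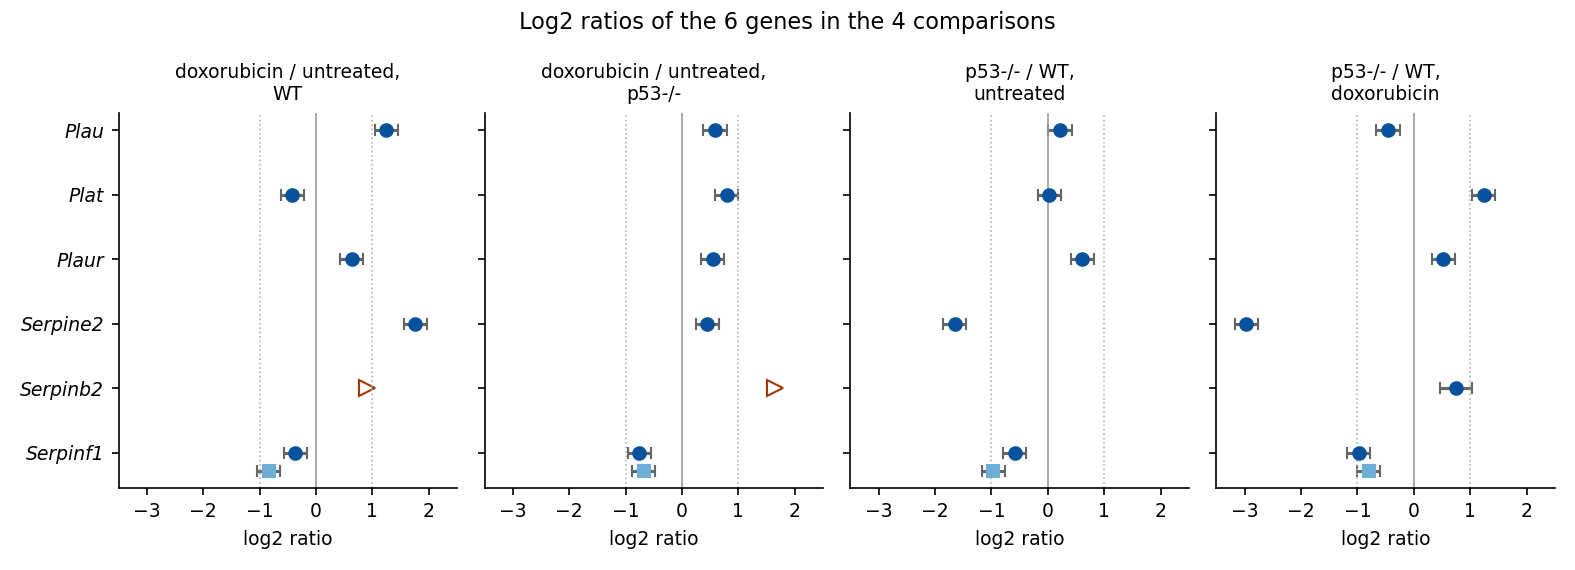
Log2 ratios of the 6 genes in 4 comparisons of 2 arrays each, after scaling to the 75th percentile. Circles are the brighter or single probe, squares the second Serpinf1 probe, bars the scanner error, triangles the lower bounds of Serpinb2 and dotted lines the 2-fold threshold. Serpine2 lies at -1.65 without and -2.97 with doxorubicin in the comparisons of p53-/- with WT, while Plat moves from 0.02 to 1.24.

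Marker lists of other cell types also differed between the untreated and treated arrays. The summed level of 7 epithelial markers was 7.52 and 7.69 times the 75th percentile in untreated WT and p53-/- MEFs and 30.8 and 35.3 times with doxorubicin. Such a sum weighs each probe by its brightness, so that a few bright probes can carry it. Of the 7, 4 were well above background in each untreated culture, 6 in treated WT and 5 in treated p53-/- MEFs. Epcam was not well above background on any array. With doxorubicin the log2 ratios in WT and p53-/- MEFs were 3.51 and 2.91 for Krt19 and 0.91 and 1.91 for Krt18. They were 1.54 and 1.05 for Krt14 and -0.46 and 0.32 for Krt8. Krt5 was well above background only in treated WT MEFs, at least 19.1-fold higher, and its second probe on no array. The fibroblast sum went from 811 to 611 times the 75th percentile in WT and from 627 to 509 times in p53-/- MEFs. Of the 12 fibroblast markers, 6 were at least 2-fold lower with doxorubicin in WT (median log2 ratio -1.03) and 3 in p53-/- MEFs (-0.52). Beside them stand 10.4% and 6.89% of all genes. In either genotype 0 were at least 2-fold higher, beside 11.0% and 9.24%. The lowest in WT MEFs were Lum, at -4.81 and -2.34, and Pdgfra, at -3.36 and -0.89. Ratios above 0 were found for 3 of the 12 in each genotype. They were Col1a1 (0.26), Thy1 (0.25) and Vim (0.02) in WT MEFs, and S100a4 (0.98), Thy1 (0.80) and Dcn (0.30) in p53-/- MEFs. The endothelial sum lay between 2.39 and 4.23 times and the mesothelial sum between 1.54 and 3.21 times. Of 4 mesothelial markers measured for doxorubicin in WT MEFs, 3 were at least 2-fold lower and 1 was higher. In p53-/- MEFs 0 of 4 were lower and 1 was higher. Beside both stand the same shares of all genes. The endothelial markers Cdh5 and Tie1 were not well above background anywhere. The 2 Kdr probes disagreed, with log2 ratios for doxorubicin of 0.20 and 2.68 in WT and -0.35 and 1.70 in p53-/- MEFs. The macrophage sum lay between 14.7 and 22.8 times and held 1 Itgam probe with signals of 26264 to 31691, while 2 other Itgam probes read at most 205. Cd14, of the same list, read signals of 513 and 6020 in untreated and treated WT MEFs and 563 and 1117 in p53-/- MEFs, a difference of 3.12 between the log2 ratios. The other markers with a measured ratio in WT MEFs did not follow it. Of 6 macrophage markers measured in WT MEFs, 1 was at least 2-fold higher with doxorubicin and 0 were lower, beside 11.0% and 10.4% of all genes. Csf1r was at -0.63 there, Lyz2 at -0.57, Ptprc at 0.22, Adgre1 at 0.20 and the bright Itgam probe at 0.46. Cd68 was well above background only in treated WT MEFs, as Cd14 was highest there. It was at least 4.25-fold higher with doxorubicin in WT MEFs, or 2.23 times the brightest negative control. The part of these markers in the ratios above was not tested.

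Without drug, p53-/- and WT MEFs differed most in Serpine2. Of the 5 measured genes, 1 was at least 2-fold lower in p53-/- MEFs, beside 2.62% of 17317 genes, and 0 were higher, beside 2.15%. Serpine2 was 3.14-fold lower (log2 ratio -1.65, scanner error 0.20), and 0.618% of the genes measured had a lower ratio. The log2 ratio was 0.61 for Plaur, 0.21 for Plau, 0.02 for Plat and -0.59 for Serpinf1. The Plat value was below the repeat-spot limit of 0.19 and changed its sign under median scaling and under another background correction.

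With doxorubicin all 6 genes could be compared between genotypes. At least 2-fold higher in p53-/- MEFs was 1 gene, beside 11.9% of 17918 genes, and 1 was lower, beside 10.3%. Plat was 2.36-fold higher (log2 ratio 1.24, scanner error 0.20) and Serpine2 was 7.83-fold lower (log2 ratio -2.97), with 187 genes below it. Serpinf1 was just short of the threshold at -0.98, and its second probe gave -0.80. The log2 ratio was 0.53 for Plaur, 0.75 for Serpinb2 and -0.46 for Plau. Serpinb2 was dim on both arrays, and its ratio was 0.40 under another background correction.

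For the difference of the doxorubicin log2 ratios, WT minus p53-/-, 1 of the 5 measured genes was at least 1 higher, beside 8.38% of 16538 genes, and 1 was at least 1 lower, beside 9.86%. These were Serpine2 at 1.32 and Plat at -1.22. Plau, the other activator, was at 0.67, on the side of Serpine2 and not of Plat. Serpinf1 was at 0.39 and Plaur at 0.09, and the second Serpinf1 probe was at -0.17. The other inhibitor, Serpinb2, had no measured difference. The difference and the comparisons above use the same 4 arrays and are not separate evidence.

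The order of the levels over the 4 arrays set the genes apart. For Serpine2 the order from low to high was untreated p53-/-, treated p53-/-, untreated WT and treated WT, with steps of 0.45, 1.21 and 1.76 on the log2 scale. For Plau it ran from untreated WT through untreated and treated p53-/- to treated WT, with steps of 0.21, 0.58 and 0.46. Plat ran from treated WT through untreated WT and untreated p53-/-, which did not differ beyond the repeat-spot limit, to treated p53-/-. All steps except that one and the middle step of Plaur exceeded this limit. By the distance between log2 levels centered on their mean over the 4 arrays, the 2 most alike of the genes measured on all arrays were Plat and Plaur (0.77), followed by Plau and Plaur (0.82). The least alike were Plat and Serpine2 (3.33).

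Among the 16537 other genes measured on all 4 arrays, those nearest to each pattern were named by the same distance. Nearest to Serpine2 was Tcn2, a vitamin B12 carrier, at 0.08, with a log2 ratio for doxorubicin of 1.66 in WT and 0.46 in p53-/- MEFs. Ndrg4 and Vmn2r-ps134 followed at 0.25 and 0.29. For each of the others 3 genes lay at 0.04 to 0.09, so close matches over 4 arrays were common. They were Gypc, Ugdh and Tmem161b for Plat, Gm14151, Gm2138 and Rnaseh2c for Plau, and Ubr3, Fam38a and LOC100047837 for Serpinf1. For Plaur they were Ccdc94 and 2 transcripts without a symbol in the files, ENSMUST00000089514 and ENSMUST00000108229.

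The wider plasminogen system was listed as 38 further genes, of which 26 were measured for WT and 25 for p53-/- MEFs. With doxorubicin 6 were at least 2-fold higher and 5 lower in WT MEFs, and 7 were higher and 3 lower in p53-/- MEFs, beside the shares of all genes given above. The median log2 ratio was 0.14 in WT and -0.29 in p53-/- MEFs, and neither direction held under every alternative. The WT median turned to -0.14 under median scaling, where all genes were at -0.27 and the list stayed above them. It turned to -0.06 among genes above background on all 4 arrays, where all genes were at 0.01. The p53-/- median turned to 0.28 without the filter on dim probes, where all genes were at 0.26. Plg, the gene of plasminogen itself, was not well above background on any array, and neither were F12, A2m, Serpina5, Vtn, Fga and Fgb. The substrate is a liver product known to reach cells in plasma or serum.

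**Figure D3:**
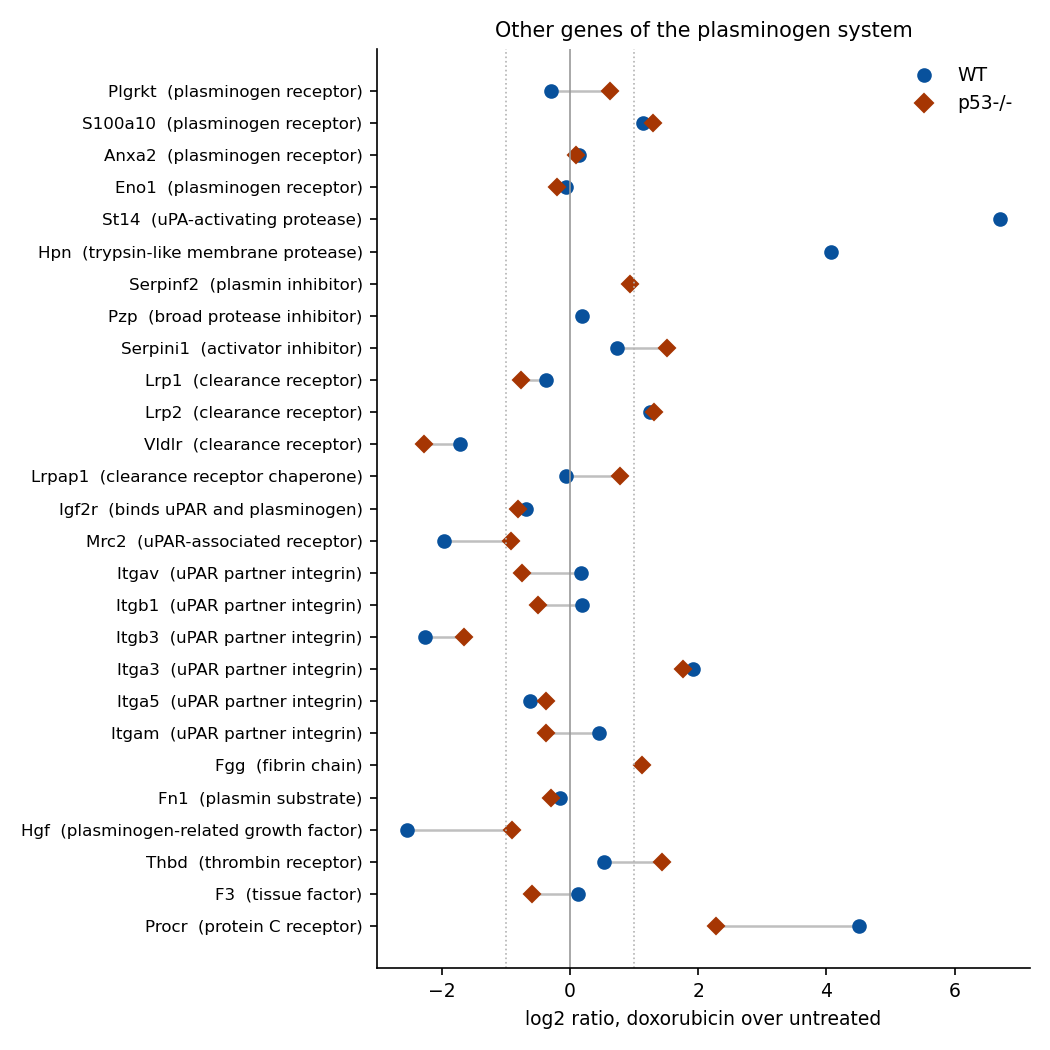
Log2 ratio of doxorubicin-treated over untreated MEFs for genes of the wider plasminogen system measured in at least 1 genotype, with the role of each in brackets. Circles are WT, diamonds p53-/-, grey lines join the 2 values of a gene and dotted lines mark 2-fold. St14, Procr and Hpn lie farthest to the right in WT MEFs, and Hgf, Itgb3, Mrc2 and Vldlr pass 2-fold to the left.

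Proteases and receptors on the cell surface had the largest ratios. St14, whose product matriptase can activate uPA, read signals of 173 and 15839 in WT MEFs without and with the drug (log2 ratio 6.71). It read 55.4 and 134 in p53-/- MEFs, where it was not well above background without the drug and near the brightest negative control, 120, with it. Hpn, a related membrane protease, read 123 and 1799 in WT MEFs (4.06) and was not well above background in p53-/- MEFs. The brightest negative control on the untreated WT array read 108. With doxorubicin, St14 was lower in p53-/- than in WT MEFs by a log2 ratio of -7.30 and Hpn at least 27.5-fold lower. Procr, the receptor of protein C, rose in both genotypes with log2 ratios of 4.51 and 2.28, a difference of 2.23. Thbd, which binds thrombin beside it, rose in p53-/- MEFs at 1.43 and was at 0.53 in WT MEFs.

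S100a10, a subunit of the annexin complex that holds plasminogen and tPA, rose in both genotypes (1.14 and 1.30), while Anxa2, its partner, was at 0.14 and 0.09. Lrp2, an endocytic receptor of the family that clears activator and serpin complexes, also rose in both (1.24 and 1.31). Under median scaling both lost the WT call, at 0.86 for S100a10 and 0.97 for Lrp2. Vldlr, of the same family, fell in both (-1.72 and -2.28). Among integrins that associate with uPAR, Itga3 rose (1.92 and 1.77) and Itgb3 fell (-2.26 and -1.65). A second Itgb3 probe was well above background on the untreated arrays only.

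Mrc2, a collagen receptor found with uPAR, fell in WT MEFs at -1.96 and was at -0.92 in p53-/- MEFs, or -1.22 under median scaling, and its second probe gave -0.83 and -0.10. Hgf, a growth factor with a plasminogen-like structure, fell in WT MEFs at -2.54 and was at -0.91 in p53-/- MEFs, where it passed 2-fold under median scaling (-1.21) and quantile normalization (-1.06). Its signal in treated WT MEFs was 81.5, near the brightest negative control of that array, 77.5. Serpini1, which encodes the tPA inhibitor neuroserpin, rose in p53-/- MEFs at 1.52 and was at 0.73 in WT MEFs, or 1.10 by the mean of its probes, of which the second was not well above background on any array. Its brighter probe read a signal of 171 in untreated p53-/- MEFs, below the brightest negative control there. Fgg, a fibrinogen chain, read 81.5 and 229 in p53-/- MEFs (1.12), where the brightest negative control without the drug read 250.1. Its call was lost under median scaling (0.83), quantile normalization (0.79) and another background correction (0.62).

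The other serpins give the family around Serpine2, Serpinb2 and Serpinf1. Of 24 further clade B genes 6 were measured in each genotype, with 0 at least 2-fold higher and 0 lower in WT MEFs and 2 higher and 0 lower in p53-/- MEFs. These counts leave out genes that were well above background only with the drug, among them Serpinb10 and Serpinb5, whose bounds are given below. A further 23 serpins on the array, from outside clade B, are called secreted here. Whether each is secreted was not checked, and Serpinh1 among them is a chaperone. Of these 23, 10 were measured in WT MEFs, with 3 higher and 1 lower, and 9 in p53-/- MEFs, with 2 higher and 0 lower. Beside them stand the shares over all genes, which were 11.0% (higher) and 10.4% (lower) for WT MEFs, and 9.24% and 6.89% for p53-/- MEFs. The median log2 ratio was -0.20 and 0.68 for clade B and 0.56 and 0.62 for the secreted serpins, in WT and p53-/- MEFs. Quantile normalization put the secreted serpins at 0.19 and 0.32. Without the filter on dim probes they stood at -0.07 in WT MEFs, where all genes were at -0.09, and clade B stood at 0.29 in p53-/- MEFs, where all genes were at 0.26.

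**Figure D4:**
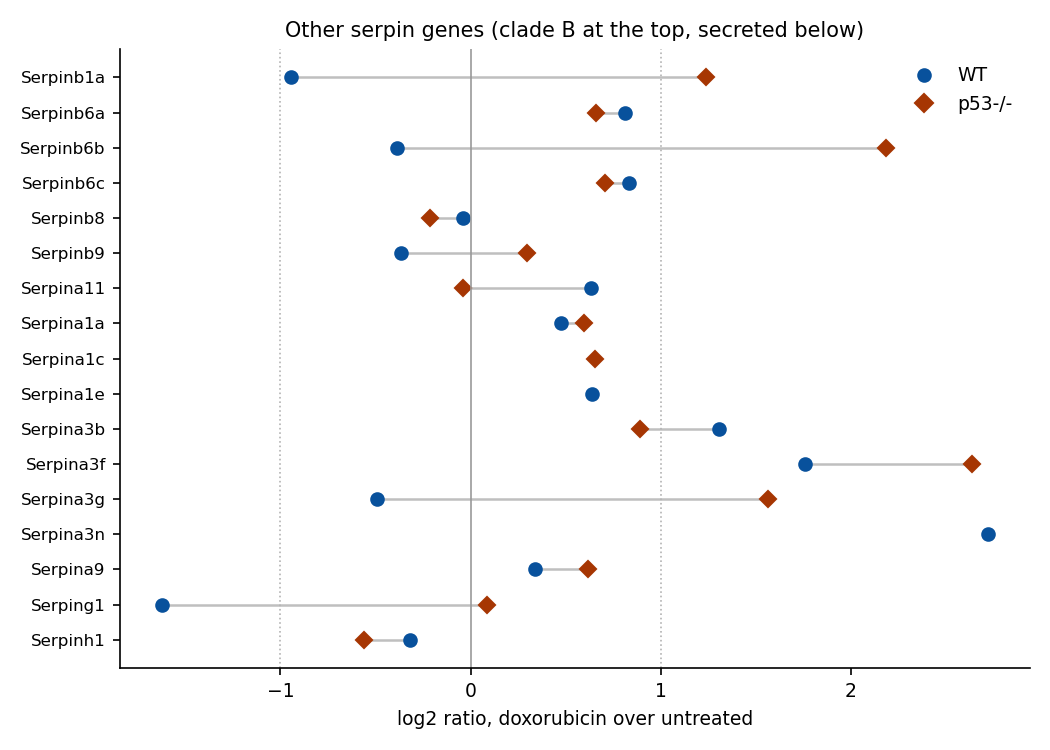
Log2 ratio of doxorubicin-treated over untreated MEFs for the other serpin genes measured in at least 1 genotype. Circles are WT, diamonds p53-/-, grey lines join the 2 values of a gene and dotted lines mark 2-fold. Serpinb6b, Serpinb1a and Serpina3g lie left of 0 in WT MEFs and right of 2-fold in p53-/- MEFs.

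The Serpina3 genes are mouse relatives of antichymotrypsin. Serpina3n was at 2.72 in WT MEFs and at least 8.73-fold higher in p53-/- MEFs, or 2.02 times the brightest negative control. Serpina3f was at 1.76 and 2.64, and Serpina3b at 1.30 and 0.89. Serpina3n read a signal of 105 in untreated WT MEFs, where the brightest negative control read 108. Serpina3f read 167 in untreated p53-/- MEFs, where that control read 250.1. Serpina3g was at -0.49 in WT and 1.57 in p53-/- MEFs. Serpinb6b and Serpinb1a, inhibitors of clade B that stay inside the cell, likewise had ratios on opposite sides, at -0.39 and 2.18 for Serpinb6b and at -0.94 and 1.24 for Serpinb1a. Under median scaling the Serpinb1a values were -1.22 and 0.94. Both the Serpina3 and the Serpinb6 group include near-identical copies, so a probe may read more than 1 of them.

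Serping1, which encodes the C1 inhibitor, fell in WT MEFs at -1.62 and was at 0.09 in p53-/- MEFs, and its second probe gave -1.54 and -0.05. Serpinh1, the collagen chaperone HSP47, was at -0.32 and -0.56. Serpinb8 was at -0.04 and -0.21, and Serpina11 at 0.63 and -0.04.

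Serpinb2 lies between Serpinb7 and Serpinb10 among the protein-coding genes of chromosome 1 (GRCm38.p6), and these neighbors were looked at after their values were seen. Serpinb10 read signals of 16.7 in untreated and 2160 in treated WT MEFs, at least 43.5-fold higher or 22.8 times the brightest negative control, and was not well above background in p53-/- MEFs (15.7 and 74.9). Serpinb7 was well above background only in treated p53-/- MEFs, with signals of 15.8, 46.7, 14.7 and 272 in the order used above. That makes it at least 3.65-fold higher with the drug in p53-/- MEFs, and 0.84 times the level of the brightest negative control there. Serpinb2 was well above background in both treated cultures, and these neighbors each in 1 of them. Serpinb5, a clade B serpin known as maspin and also chosen after its values were seen, read 52.3 and 725 in WT MEFs, at least 14.6-fold higher or 7.64 times the brightest negative control. In p53-/- MEFs it read 17.7 and 185, at least 2.49-fold higher but 0.58 times that control, and with doxorubicin its log2 ratio of p53-/- to WT was -2.38.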

How the data were processed

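Each of 4 one-color Agilent arrays measured 1 condition, WT or p53-/- MEFs with or without doxorubicin, from 200 ng of total RNA. Per the file headers the authors read them with Agilent Feature Extraction 10.7.3.1, and the deposited intensity is its processed signal, background-subtracted and not scaled between arrays. A deposited table of all arrays held the same intensity at each of 44397 spots (within a relative tolerance of 1e-05). The deposited mean and local background intensity served 1 alternative, and the deposited flags are the other 0 or 1 columns used.

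Control and outlier spots were left out, spots of a probe averaged as log2, and the 75th percentile of each array subtracted. Where a gene had several probes, the one with the highest mean over the arrays stood for it. No p-value was calculated, and the number of arrays limits the precision. A called gene was at least 2-fold apart. The genes and lists were chosen with earlier results of these data known. Named were the 6 genes, those of the plasminogen list past 2-fold with doxorubicin (1 is not reported here by name, though it remains in counts and medians), the 3 highest and 3 lowest other serpins per genotype, and the 3 genes nearest in pattern. Alternatives were median and quantile scaling, normexp (limma 3.58.1, R 4.3.3, offset 50), no filter on dim probes, all 4 arrays above background, the mean of probes, the deposited table, and thresholds of 1.5-fold and 3-fold. Python 3.11.15 with pandas 2.3.3 and numpy 2.4.6 was used, and the steps were tested on simulated data. Fold changes that the authors calculated with the Subio Platform were not used here.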

Additional observations from a re-analysis of the deposited data

Results flagged for a closer look

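Plat had doxorubicin log2 ratios of opposite sign in the genotypes, -0.42 in WT and 0.79 in p53-/- MEFs, a difference of -1.22 between them, WT minus p53-/-. With 1 array per condition the difference was not tested.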

How the results depend on the processing

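No paired analysis was possible because each condition has 1 array and no ratio comes from a test, and no array could be left out. Of the log2 ratios of the 6 genes that were above the repeat-spot limit, none changed sign under any alternative. Scaling to the array median put the median of all genes at -0.27 for doxorubicin in WT and -0.30 in p53-/- MEFs, and moved the share of higher among called genes from 51.4% to 32.1% in WT and from 57.3% to 31.2% in p53-/- MEFs. Under it 1 of the 6 genes was higher with doxorubicin in WT MEFs, 1 was lower in p53-/- MEFs, and 2 were lower in p53-/- than in WT MEFs with doxorubicin. It also gave 1 clade B serpin higher in p53-/- and 1 lower in WT MEFs, and 8 plasminogen genes lower in p53-/- MEFs. Over all genes, 1321 of 17546 were then higher and 2797 lower with doxorubicin in WT MEFs. In p53-/- MEFs 956 of 16978 were higher and 2104 lower. With doxorubicin, 2041 of 17918 were lower in p53-/- than in WT MEFs.

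At 1.5-fold, 1 of the 6 genes was higher and 1 lower with doxorubicin in p53-/- MEFs, 1 was higher and 2 lower in untreated p53-/- than WT MEFs, 2 were higher and 2 lower with doxorubicin, and 2 differences were higher in WT. The clade B serpins then gave 2 higher and 1 lower in WT and 4 higher in p53-/- MEFs, the secreted serpins 5 and 6 higher, and the plasminogen genes 9 lower in p53-/- MEFs. Over all genes, 3618 of 17546 were higher and 3517 lower with doxorubicin in WT MEFs, and 3291 and 2696 of 16978 in p53-/- MEFs. Higher and lower in p53-/- than WT MEFs were 1512 and 1503 of 17317 without and 4084 and 3530 of 17918 with doxorubicin. The difference was higher in WT for 3047 of 16538 genes. At 3-fold, 1 of the 6 genes was higher in WT MEFs, 0 were higher in p53-/- than WT MEFs with doxorubicin and 0 differences passed in either direction. The clade B and the secreted serpins then gave 1 higher each in p53-/- MEFs and the plasminogen genes 2. Over all genes, 889 of 17546 were higher with doxorubicin in WT and 648 of 16978 in p53-/- MEFs. With doxorubicin, 948 of 17918 were higher in p53-/- than in WT MEFs. The difference was higher in WT for 524 and lower for 727 of 16538 genes.

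Without the filter on dim probes Serpinb2 was counted too, with log2 ratios of 0.91 in WT, 3.76 in p53-/- and -2.09 between the untreated arrays, which rest on signals not well above background. Then 1 of the 6 genes was higher with doxorubicin in p53-/- MEFs, 2 were lower in untreated p53-/- than WT MEFs, and 2 differences were lower in WT. Clade B serpins gave 3 higher and 2 lower in WT and 6 higher in p53-/- MEFs, secreted serpins 5 higher and 2 lower in WT and 10 higher and 1 lower in p53-/- MEFs, and plasminogen genes 11 and 14 higher. Of all 31824 genes, 4920 were then higher and 2878 lower with doxorubicin in WT MEFs, and 4732 and 2361 in p53-/- MEFs. Lower in untreated p53-/- than WT MEFs were 1679, and 4070 differences were lower in WT. The fold threshold and filter counts follow from how many genes each setting admits. The cause of the shift under median scaling was not tested. Signals near the brightest negative control limit Serpinb2 and the other dim probes.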
